A study of Mus musculus with 240 samples.

Results

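Small leucine-rich proteoglycans (SLRPs) are secreted matrix proteins with a short core of leucine-rich repeats, and 7 of their genes, Fmod, Dcn, Lum, Bgn, Ogn, Omd and Prelp, were followed here through a mouse glioma model. The members were found by gene symbol among the 34623 genes of the deposited count table, and all 7 had a row. The family was picked because Fmod had been seen to be very high in a single tumour, Tumor_16713. The Fmod levels of the tumours are therefore a description of what was picked, with no test attached, and the other members' tumour values come from the same animals and are not independent evidence.

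The bulk samples were tdT-positive oligodendrocyte precursor cells (OPCs; tdT is the red fluorescent reporter tdTomato) cut from 10 µm brain sections of 37 mice by laser-capture microdissection. Wild-type (WT) animals were taken at 12, 90 and 150 days after the start of tamoxifen (dpi; 5, 5 and 6 animals). Animals with the genotype Trp53-/- Nf1-/- (CKO), which lack the tumour suppressor p53 and the RAS inhibitor neurofibromin in the targeted cells, were taken at 12 and 90 dpi (7 and 7 animals), and 7 more gave tumours at 150 dpi, named in the labels as brain tumor cells. Time in all groups is counted from tamoxifen, per the labels. Ages and the Cre driver are not given in the sources used here, nor is the number of cells captured per animal. The small libraries, all Trp53-/- Nf1-/-, held 10 cells or were pool-and-split controls, from 8 µm sections at 12 dpi (56 and 40 libraries) and 90 dpi (56 and 40 libraries).

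Fibromodulin (Fmod), lumican (Lum), PRELP and osteomodulin (Omd) form class II of the family and can carry keratan sulfate, decorin (Dcn) and biglycan (Bgn) form class I with chondroitin or dermatan sulfate chains, and osteoglycin (Ogn, also called mimecan) belongs to class III. The proteins bind collagen fibrils and set their spacing and thickness, and several of them bind TGF-beta or signal through growth factor and Toll-like receptors. In the healthy brain they are known mainly from the meninges and the walls of vessels, and they are best known from tendon, cartilage, cornea and bone.

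Total counts per animal, in units of 1000000, lay between 2.32 and 31.3, except for WT_21167 at 90 dpi with 0.0937 (93694 counts). The small libraries held 1.64 to 6.49 in the same unit. The second library of CKO_20647 at 90 dpi stood apart: it held at least 1 count of only 12297 of the 16349 tested genes, against 14463 to 16176 in the 46 other libraries of over 1000000 counts. It held 0 counts of Fmod, Lum, Omd, Dcn and Ogn and 1.02 of Bgn. The summed levels of these members in CKO_20647 therefore lie below those of its first library. OPC markers were present in all groups, with a summed level of 10 genes of 1088 to 2185 counts per 1000000 (CPM) in the non-tumour animals and of 2347 to 5678 CPM in the tumours, and neuron markers summed to 6736 CPM or more in each non-tumour animal and to 282 to 1517 CPM in the tumours. All 7 tumours had 2 libraries, as had 3 of 7 CKO animals at 90 dpi, 1 of 7 at 12 dpi and no WT animal, so that library number and tumour cannot be told apart against WT. The p-values below set differences against the spread between these animals, estimated per gene over all groups together. For all 7 members the SD of log2 CPM was larger in the tumours than in WT at 150 dpi. For Bgn it was 1.69 against 0.48. Fits of only the 2 groups compared are given at the end. In bulk RNA, a change in the number of cells of a type and a change in RNA per cell cannot be told apart.

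On the GRCm38 coordinates of the table, 6 members sit in 3 neighbouring pairs. Fmod (chromosome 1, 134037254 to 134048277, plus strand) and Prelp (chromosome 1, 133910304 to 133921414, minus strand) are 116 kb apart with 1 annotated pseudogene between them. Dcn (97479609 to 97518143) and Lum (97565128 to 97572703) follow each other on the plus strand of chromosome 10, 47.0 kb apart, and Omd (49582462 to 49592822) and Ogn (49608046 to 49624501) on the plus strand of chromosome 13, 15.2 kb apart, in each case with no gene lying wholly between. Cenpp, a centromere protein gene on the minus strand (49464023 to 49652785), spans both Omd and Ogn, and since the sources used here do not say whether counting used strand, reads of Cenpp and of these members cannot be told apart. Bgn lies alone on the X chromosome (73483602 to 73495933, plus strand). All 7 are protein-coding.

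The promoters of Fmod, of its neighbour Prelp and of Bgn are shown because these were the most abundant members per length in Tumor_16713. The windows run from 250 bases before to 50 bases after the RefSeq start on GRCm38.p6, 5′ to 3′ on the gene's strand; the table matched Fmod, Prelp, Omd, Ogn and Bgn by symbol, and not Dcn or Lum. Capitals mark matches of the motifs searched on both strands. The windows are chr1:134037004-134037303 (Fmod, plus), chr1:133921352-133921651 (Prelp, minus) and chrX:73483351-73483650 (Bgn, plus).
Fmod: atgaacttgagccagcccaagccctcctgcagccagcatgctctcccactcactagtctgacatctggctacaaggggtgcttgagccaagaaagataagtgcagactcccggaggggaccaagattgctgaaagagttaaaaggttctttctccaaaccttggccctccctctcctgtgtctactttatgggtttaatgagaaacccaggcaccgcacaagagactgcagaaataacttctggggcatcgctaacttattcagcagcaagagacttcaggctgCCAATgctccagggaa
Prelp: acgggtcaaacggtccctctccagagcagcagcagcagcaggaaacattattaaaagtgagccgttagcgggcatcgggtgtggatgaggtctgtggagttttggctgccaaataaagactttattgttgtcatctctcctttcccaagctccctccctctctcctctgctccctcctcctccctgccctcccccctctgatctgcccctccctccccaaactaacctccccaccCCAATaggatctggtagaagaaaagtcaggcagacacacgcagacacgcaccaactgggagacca
Bgn: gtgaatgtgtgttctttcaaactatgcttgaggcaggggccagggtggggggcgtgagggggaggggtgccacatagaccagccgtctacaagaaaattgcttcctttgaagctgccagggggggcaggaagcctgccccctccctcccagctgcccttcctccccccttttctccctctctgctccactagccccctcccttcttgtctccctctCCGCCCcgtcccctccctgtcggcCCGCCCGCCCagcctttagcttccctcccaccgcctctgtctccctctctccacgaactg
The letters searched were the TATA box (TATAAA, in 13.6% of 32851 promoters of this length), an AP-1 site (TGANTCA, 7.81%), the CCAAT box (CCAAT, 37.4%), a SOX site (ACAATG, 12.6%), the GC box (GGGCGG, 35.7%) and a RUNX site (TGTGGT, 16.8%). Fmod and Prelp each held 1 CCAAT box, 35 bases into the transcript in Fmod and at base -15 before the start in Prelp. Bgn held 3 GC boxes, on the minus strand, the last 2 of which overlap. These are letter matches and say nothing of binding, and the GC content of the 3 windows was 51.0%, 55.3% and 63.7%.

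Fmod was low in every group without tumours. Its level, in CPM of totals scaled by the trimmed mean of M-values (TMM), was 6.23, 0.818, 2.68, 0.870 and 4.26 in the 5 WT animals at 12 dpi and 0, 0.333, 2.23, 1.03 and 1.97 in the 5 at 90 dpi, where the 0 is the shallow WT_21167, whose depth allows up to 32.0 CPM. At 150 dpi the 6 WT animals ran from 0.613 over a median of 1.56 to 4.82 CPM. CKO animals ran from 0 over 1.26 to 10.6 CPM at 12 dpi and from 0.0490 over 0.417 to 1.70 CPM at 90 dpi. The ranges of these 5 groups overlapped, and the highest measured level was that of CKO_22364 at 12 dpi. A count of 0 in WT_21167, also found for Lum, Omd and Ogn, allows up to 32.0 CPM, so tumours are set below against the 29 non-tumour animals other than WT_21167. The levels of Prelp (19.0 CPM), Bgn (28.4) and Dcn (9.48) in WT_21167 rest on 2, 3 and 1 counts. They are listed first below for WT at 90 dpi.

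In the tumours Fmod spanned 2196-fold. Tumor_16713 had 1474 CPM (13424 counts), followed by Tumor_16844 with 54.2, Tumor_16839 with 27.1 and Tumor_21354 with 22.1 CPM, and then Tumor_16840 with 1.35, Tumor_21256 with 1.08 and Tumor_21349 with 0.671 CPM. The first 4 lay above these 29 animals and the last 3 within their range, so the tumour group fell into a high and a low part with Tumor_16713 27.2-fold above the next. Both libraries of Tumor_16713 carried the level, 1471 and 1907 CPM of their own totals. Per kilobase of exon, Fmod was in place 32 of 16276 genes in that tumour, and in places 2683 to 14821 in the others. The threshold that divides the tumours is the top of the range of the 29 animals, set by CKO_22364 with 10.6 CPM. The nearest tumour above it was Tumor_21354 with 22.1 CPM, and the nearest below it Tumor_16840 with 1.35 CPM. The fitted log2 change of tumours against WT at 150 dpi was 6.06 ± 1.40 (SE), and 3.08 ± 0.95 without Tumor_16713.

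**Figure D1:**
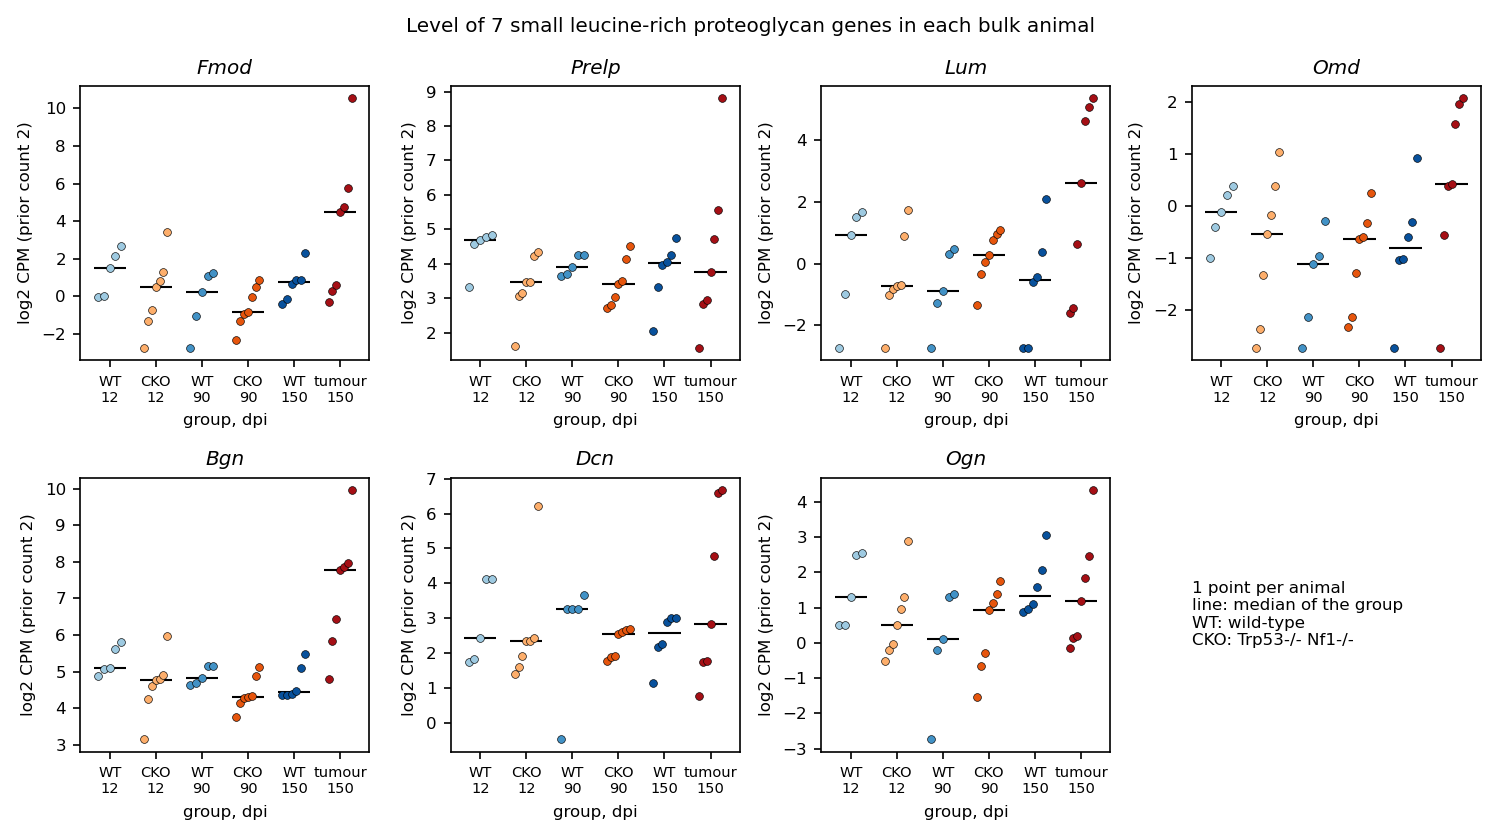
Level of each member (log2 CPM with a prior count of 2, y axis) in the 37 bulk animals by group (x axis), 1 point per animal and a line at the group median. Fmod, Lum and Bgn separate a high set of tumours from the other animals, Prelp is far above the rest in 1 tumour, and Ogn and Omd overlap widely.

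Prelp, which anchors collagen to basement membranes through heparan sulfate, was the second member to stand out in Tumor_16713, at 446 CPM. The other tumours had 47.0 (Tumor_21354), 26.3 (Tumor_16844), 13.4 (Tumor_21349), 7.60 (Tumor_16840), 7.00 (Tumor_16839) and 2.80 CPM (Tumor_21256). WT animals had 23.8, 27.3, 25.8, 9.87 and 28.3 CPM at 12 dpi, 19.0, 12.2, 19.0, 12.9 and 14.7 CPM at 90 dpi, and 3.97 to 26.7 CPM around a median of 16.0 at 150 dpi. The CKO ranges were 2.93 to 20.2 CPM at 12 dpi and 6.37 to 22.7 CPM at 90 dpi. Only Tumor_16713 and Tumor_21354 exceeded the 29 animals, and the tumour median, 13.4 CPM, lay below that of WT at 150 dpi. The call that Prelp was higher in tumours (log2 change 2.04 ± 0.72, edgeR adjusted p = 0.0204) rested on Tumor_16713: without it the log2 change was 0.15 ± 0.46 and the adjusted p 0.832.

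Lumican, a keratan sulfate proteoglycan of cornea and other connective tissue, was low outside the tumours, with medians of 0.385 to 1.75 CPM in the 5 groups and a maximum of 4.09 CPM in WT_22064. The tumours gave 40.7 (Tumor_16713), 33.8 (Tumor_21354), 24.2 (Tumor_16844), 5.93 (Tumor_16839), 1.40 (Tumor_16840), 0.215 (Tumor_21256) and 0.177 CPM (Tumor_21349). The 4 tumours with high Fmod were also the 4 above the 29 animals for Lum, but here Tumor_16713 exceeded the next by only 1.21-fold. Lum rose in the tumours against WT at 150 dpi by 3.54 ± 0.97 on the log2 scale (edgeR adjusted p = 0.00282), and by 2.88 ± 1.01 without Tumor_16713 (adjusted p = 0.0187).

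Osteomodulin, named for its place in bone matrix, was measured at no more than 4.06 CPM in any animal. Tumours had 4.06, 3.78, 2.83, 1.18, 1.17, 0.526 and 0 CPM, with Tumor_16713 highest and Tumor_21256 at 0 counts, which allows up to 0.611 CPM. The 29 animals had 0 to 1.92 CPM, and 3 tumours were above them, though below what the 0 of WT_21167 allows. Its log2 change against WT at 150 dpi was 1.67 ± 0.80 (edgeR adjusted p = 0.0852).

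Biglycan, the class I member that signals through Toll-like receptors when released from the matrix, had counts in every animal, at 8.78 CPM or more. WT animals had 33.9, 34.5, 48.9, 29.6 and 56.0 CPM at 12 dpi and 28.4, 35.6, 25.8, 35.3 and 24.9 CPM at 90 dpi, and 20.3 to 44.7 CPM around a median of 21.5 at 150 dpi. CKO animals had 8.78 to 62.7 CPM at 12 dpi and 13.4 to 34.7 CPM at 90 dpi. The tumours gave 996 (Tumor_16713), 248 (Tumor_21354), 233 (Tumor_16844), 217 (Tumor_16839), 86.0 (Tumor_21349), 57.4 (Tumor_21256) and 28.0 CPM (Tumor_16840). Bgn exceeded the 29 animals in 5 tumours and every WT animal at 150 dpi in 6, Tumor_16840 being the exception. It rose by 3.20 ± 0.51 on the log2 scale against WT at 150 dpi (edgeR adjusted p = 2.82e-06) and by 2.38 ± 0.40 without Tumor_16713 (adjusted p = 7.60e-06).

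Decorin, the class I member that wraps collagen fibrils and binds TGF-beta and growth factor receptors, had a different leading tumour. The highest was Tumor_21354 with 102 CPM, then Tumor_16713 with 95.2, Tumor_16840 with 27.4, Tumor_16844 with 7.00, Tumor_16839 and Tumor_21256 with 3.23 each and Tumor_21349 with 1.55 CPM. WT animals had 5.26, 3.39, 17.4, 3.19 and 17.3 CPM at 12 dpi, 9.48, 9.49, 12.6, 9.46 and 0.570 CPM at 90 dpi and 2.04 to 7.93 CPM at 150 dpi. CKO_22364 at 12 dpi reached 74.9 CPM, while the other 6 animals of its group ranged from 2.51 to 5.23 CPM, and CKO animals at 90 dpi had 3.29 to 6.24 CPM. The highest at 90 dpi, CKO_20647, had 10.5 CPM of its own total in the first library and 0 in the sparse second. Thus 2 tumours were above the 29 animals and 4 lay within the WT range at 150 dpi or below it. Dcn rose by 2.50 ± 0.87 on the log2 scale against WT at 150 dpi (edgeR adjusted p = 0.0175), a call lost without Tumor_21354 (1.41 ± 0.86, adjusted p = 0.186).

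Osteoglycin, the class III member, was highest in Tumor_16713, with 20.1 CPM against 5.36, 3.42, 2.15, 0.990, 0.943 and 0.754 CPM in the other 6 tumours. The 29 animals had 0.193 to 8.12 CPM, and of the tumours only Tumor_16713 lay above them, though below what the 0 of WT_21167 allows. The log2 change against WT at 150 dpi was 0.19 ± 0.70 (edgeR adjusted p = 0.859), and -0.57 ± 0.65 without Tumor_16713.

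**Figure D2:**
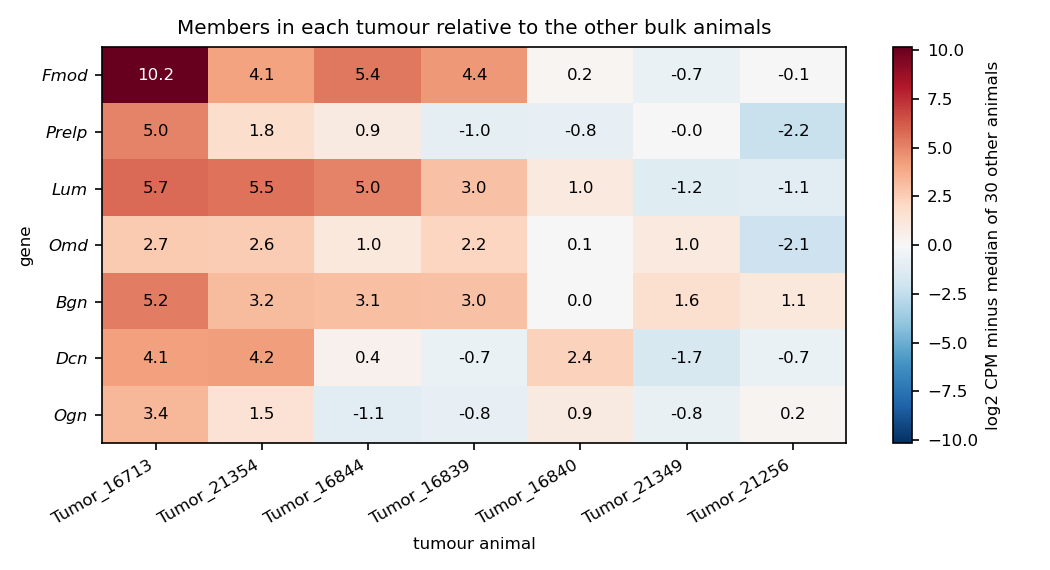
Level of each member in each tumour (log2 CPM with a prior count of 2) minus the median of the 30 non-tumour animals, red above and blue below it. Tumor_16713 is above the median for all 7 members, from 2.69 for Omd to 10.16 for Fmod, while the highest values of Tumor_16840, Tumor_21349 and Tumor_21256 are 2.35 (Dcn), 1.65 (Bgn) and 1.07 (Bgn).

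The number of members above the 29 animals ran from all 7 in Tumor_16713, over Tumor_21354 with 6, Tumor_16839 with 4, Tumor_16844 with 3 and Tumor_21349 with 1, to Tumor_16840 and Tumor_21256 with none. Of all tested genes, each single tumour had 15.9% to 21.9% above the 29 animals (20.1% in Tumor_16713), and 47.1% of genes were above in at least 1 tumour and 30.8% in at least 2. With WT_21167 counted at its listed levels these shares were 44.6% and 28.8%. Summed over the 7 members, Tumor_16713 held 3077 CPM, the other tumours 66.9 to 463 CPM, and the 30 other animals 15.5 to 181 CPM. Relative to the median of the other 6 tumours, Tumor_16713 had Fmod in place 4 of 16349 tested genes by log2 excess (8.00), Prelp in place 30 (5.45), Dcn in place 59 (4.28), Lum in place 110 (3.73), Ogn in place 118 (3.64), Bgn in place 234 (2.86) and Omd in place 887 (1.67). These places follow from the choice of the family and carry no test.

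All 7 members passed the filter on low counts, some of them through the tumours. Fmod is left out of the calls, since its tumour values chose the family. Of the 6 others, 4 were called higher in tumours than in WT at 150 dpi (Prelp, Lum, Bgn and Dcn) and none lower. The log2 changes of the 6 ran from 0.19 (Ogn) to 3.54 (Lum). Across all 16349 genes the median log2 change was 0.06, and 24.3% were called higher and 21.9% lower. Since the family was picked on Fmod in these tumours, nothing is read from the members' share or from the size of their changes. The count was 3 of 6 without Tumor_16713 and 3 of 6 without Tumor_21354.

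Against CKO OPCs at 90 dpi, the same genotype before tumours, 5 of the 6 were called higher, all but Ogn, and none lower. The log2 changes were 7.76 ± 1.34 for Fmod, 3.57 ± 0.48 for Bgn (edgeR adjusted p = 1.16e-07), 3.68 ± 0.90 for Lum (0.000831), 2.83 ± 0.80 for Dcn (0.00341), 2.47 ± 0.68 for Prelp (0.00287), 2.15 ± 0.73 for Omd (0.0137) and 1.47 ± 0.66 for Ogn (0.0636). Prelp was again lost without Tumor_16713 (0.53 ± 0.44, adjusted p = 0.337) and Dcn without Tumor_21354 (1.81 ± 0.77, adjusted p = 0.0506), and the change of Fmod without Tumor_16713 was 4.44 ± 0.97. Over all genes 26.4% were called higher and 22.6% lower in this comparison. Leaving out the sparse CKO_20647 library and WT_21167 left the counts at 4 and 5 of 6. The comparisons with WT and with CKO share the 7 tumours, so they are not separate evidence.

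**Figure D3:**
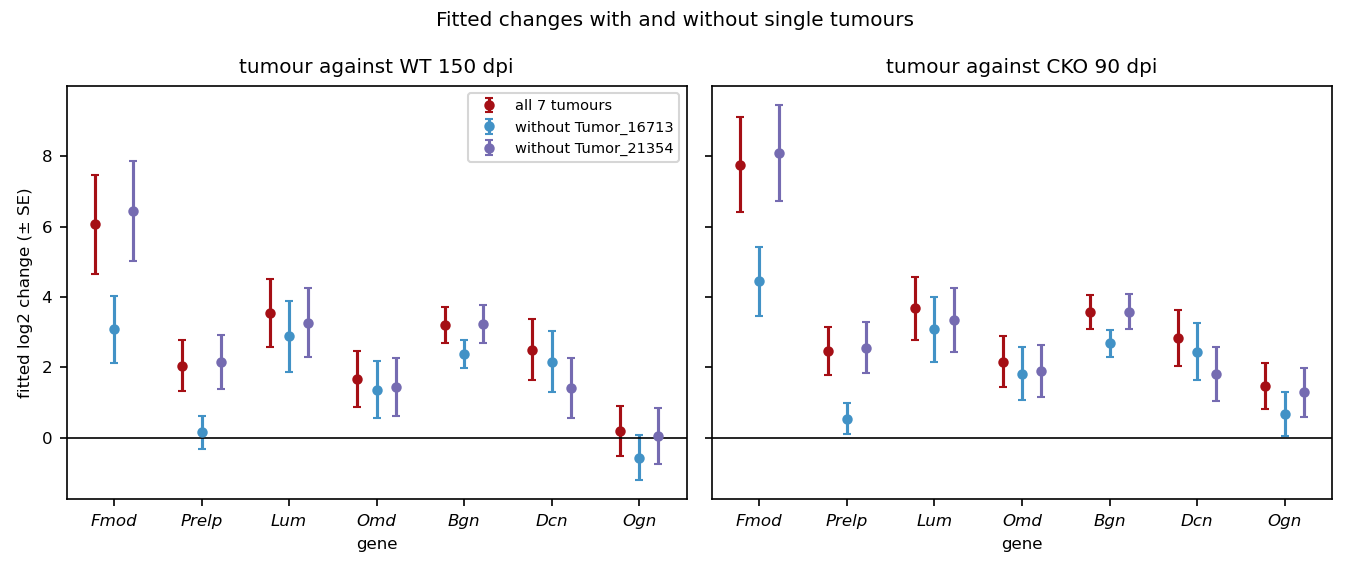
Fitted log2 change (points, ± SE) of each member in tumours against WT at 150 dpi (left) and against CKO at 90 dpi (right), with all 7 tumours and without Tumor_16713 or Tumor_21354. Prelp moves from 2.04 to 0.15 without Tumor_16713 in the left panel, whereas Lum and Bgn stay above 2.

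Before tumours, no difference between genotypes was detectable for any member at this depth. No member was called for CKO against WT at 12 dpi, where 0.0183% of all genes were called in either direction, or at 90 dpi (0.0489%), and no member had an unadjusted edgeR p under 0.05 in either comparison. At 12 dpi the log2 changes ran from -1.20 (Prelp) to 0.42 (Dcn) and at 90 dpi from -1.0 (Fmod) to 0.69 (Lum). In these data the level of Prelp at 12 dpi was 2.93 to 20.2 CPM in CKO and 9.87 to 28.3 CPM in WT, ranges that overlapped.

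Time gave no call either. For CKO at 90 against 12 dpi 0% of all genes were called, for WT at 90 against 12 dpi 0.00612% and for WT at 150 against 90 dpi 0.0183%, and in each of the 3 no member passed and none had an unadjusted edgeR p under 0.05. The 7 log2 changes from 12 to 90 dpi in WT were all negative, from -1.28 (Fmod) to -0.32 (Dcn), with an adjusted p of 1 for every member. DESeq2 called no member in any of these 5 comparisons.

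The differences of the genotype effect between times were tested as well, in contrasts added after the files were examined. From 12 to 90 dpi 0 members and 0% of all genes were called. From 90 to 150 dpi, where the later effect is that of tumours against WT, 2 of the 6 were called higher (14.2% of all genes), Bgn by 3.66 ± 0.69 (edgeR adjusted p = 8.62e-05) and Dcn by 3.13 ± 1.21 (0.0484). The fitted difference for Fmod was 7.06 ± 1.93, as a description. Dcn lay at the threshold: it was not called without the sparse CKO_20647 library and WT_21167 (2.95 ± 1.26, adjusted p = 0.0752), without Tumor_16713 (2.82 ± 1.21, adjusted p = 0.0760) or without Tumor_21354 (1.97 ± 1.20, adjusted p = 0.230).

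Levels of different genes were compared per kilobase of annotated exon. In the tumours the order by median was Bgn (35.6 CPM per kb), Fmod (6.68), Prelp (3.71), Lum (2.42), Dcn (1.20), Ogn (0.838) and Omd (0.527), and each neighbouring pair overlapped in range. At 150 dpi WT animals had Prelp (4.43) and Bgn (3.53) first, without order between them since Prelp was higher in 3 of 6 animals, followed by Dcn (1.02), Ogn (0.939), Fmod (0.472), Lum (0.223) and Omd (0.189). Bgn exceeded Dcn in all 6 of these animals with no overlap of the ranges. In CKO OPCs at 90 dpi Fmod came last, at 0.126 CPM per kb. In Tumor_16713 Fmod reached 446, Bgn 163 and Prelp 123 CPM per kb. Bgn's own place depends on its length, 6099 bases over all exons but 2666 in the longest transcript.

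Because Fmod and Prelp are neighbours, the genes within 500 kb of Fmod were listed for Tumor_16713. Of 26 annotated genes, 15 had a mean of at least 1 CPM in the tumours, and 14 of these were no members. Their log2 difference between Tumor_16713 and the median of the other tumours ran from -1.41 to 1.52, with 10 of 14 under 2-fold, and 6 of 14 were highest in Tumor_16713 (14.3% of all tested genes were). Among these 6, Gm38394 (133619940 to 133661318) and Zbed6 (133655879 to 133660885) lie within Zc3h11a (133619862 to 133661380). They are not separate places on the chromosome, so nothing is read from the count of 6. Atp2b4, a plasma membrane calcium pump 236 kb from Fmod, had 145 CPM against 36.9 to 82.2 CPM in the other tumours, and Btg2, an antiproliferative gene 26.9 kb away on the other side, 33.3 against 12.3 to 39.5 CPM. Optc (opticin), a further SLRP gene 129 kb from Fmod and next to Prelp, had 0.988 CPM in Tumor_16713 and up to 3.75 CPM in Tumor_21354. None of the 14 reached the excess of Fmod (8.00) or Prelp (5.45).

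**Figure D4:**
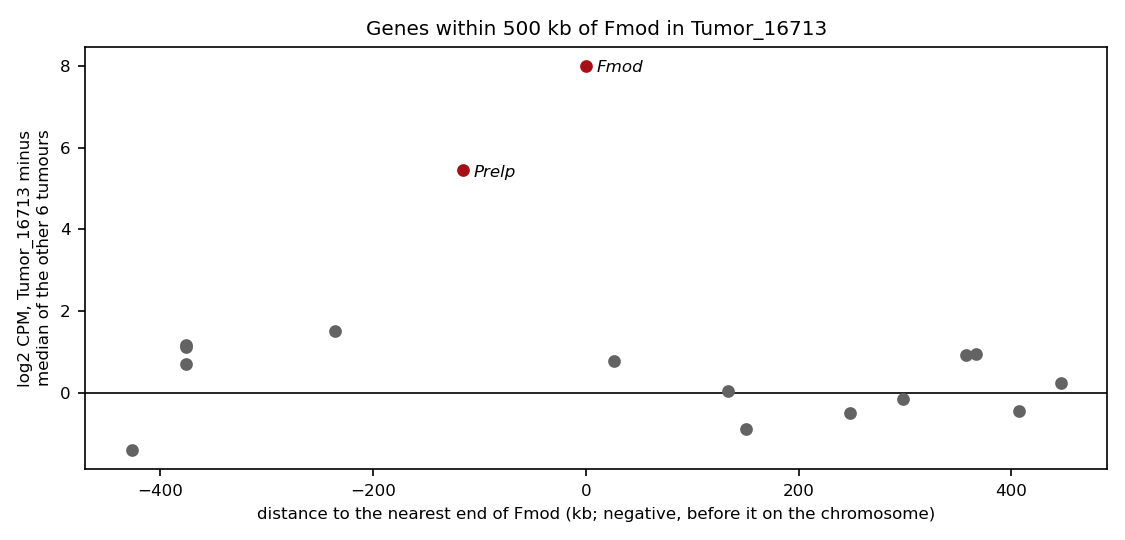
Log2 CPM of Tumor_16713 minus the median of the other 6 tumours (y axis) for the genes within 500 kb of Fmod with at least 1 CPM in the tumours, by distance to Fmod (x axis, kb). Fmod and Prelp stand at 8.00 and 5.45, and the other 14 genes between -1.41 and 1.52.

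The genes whose log2 CPM followed Fmod most closely over the 7 tumours, among the 8174 tested genes above the median level, were Papss2 (Pearson r = 0.976, Spearman rho = 0.964), Slc26a2 (0.968 and 0.893) and Sun2 (0.955 and 0.893). Papss2 encodes an enzyme that makes the activated sulfate used for sulfation, Slc26a2 a sulfate transporter and Sun2 a protein of the nuclear envelope. Papss2 had 209 CPM in Tumor_16713 and 4.24 to 57.7 CPM in the other tumours, Slc26a2 237 and 28.8 to 120 CPM, and Sun2 101 and 38.4 to 70.5 CPM. Without the 2 tumours farthest from the median of Fmod, r was 0.921, 0.920 and 0.872 over 5 tumours. Among the members, r with Fmod was 0.933 for Bgn, 0.881 for Lum, 0.848 for Prelp, 0.699 for Omd, 0.588 for Dcn and 0.549 for Ogn, and without those tumours it was 0.06 for Dcn and -0.46 for Ogn, whose rho over all 7 was 0.107. The r values describe 7 points that share their libraries with Fmod, and the first 3 are the highest of those 8174.

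For the gene and marker lists that follow, the shares of all genes called were 24.3% higher and 21.9% lower against WT at 150 dpi. Against CKO at 90 dpi they were 26.4% and 22.6%. Genes near 0 in WT could pass the filter through the tumours alone. Among these were Podn and Col2a1, with means of 0.133 and 0.731 CPM in WT at 150 dpi. The counts and medians of lists with such genes are not read against those of all genes. Of 11 other SLRP genes 7 passed the filter. Against WT at 150 dpi 3 were called higher and 1 lower, with a median log2 change of 0.96. Podn (podocan, 3.16 ± 1.09, edgeR adjusted p = 0.0170) and Tsku (tsukushi, 1.69 ± 0.57, adjusted p = 0.0149) rose, at no more than 6.26 and 10.5 CPM and highest in Tumor_16713, as did Chadl (1.67 ± 0.36), which was highest in Tumor_16844 at 103 CPM. Aspn (asporin), a class I gene, fell by 1.503 ± 0.54 (adjusted p = 0.0209). Against CKO at 90 dpi neither Podn (1.32 ± 0.85, adjusted p = 0.204) nor Aspn was called, and the value for Aspn was of the other sign (0.82 ± 0.52, adjusted p = 0.199). Kera and Epyc, of cornea and cartilage, were too low to test, with no Kera count in any tumour and at most 0.0282 CPM of Epyc.

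Of the collagens that SLRPs bind or that form fibrils, 10 of 14 tested were called higher and none lower against WT at 150 dpi, with a median log2 change of 2.72, and 11 were higher and 1 lower against CKO at 90 dpi. The list holds Col2a1, so the limit on genes near 0 in WT applies to these counts and this median. Col2a1, the fibrillar collagen of cartilage, rose most (8.24 ± 1.00, edgeR adjusted p = 1.57e-08) and had 57.3 CPM in Tumor_16713 but 625 CPM in Tumor_16839. Col11a1, which nucleates such fibrils, rose by 5.20 ± 0.70 (adjusted p = 1.33e-07) and had 3232 CPM in Tumor_16713 over a tumour median of 176. Of the 14, 10 were highest in Tumor_16713, as were 14.3% of all tested genes. That tumour was singled out for its Fmod, so such counts, here and below, are not independent evidence. Of 8 cross-linking enzymes 7 rose and none fell (median 1.94), led by the lysyl oxidases Lox (5.32 ± 1.02, adjusted p = 4.72e-05) and Loxl1 (2.27 ± 0.76, adjusted p = 0.0142), and 7 of the 8 were highest in Tumor_16713.

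Of 21 genes of cartilage and tendon matrix 14 passed the filter. Of these, 12 were called higher and none lower against WT at 150 dpi, with a median log2 change of 3.75, the largest of the lists examined. Genes near 0 in WT, such as Col2a1 with a mean of 0.731 CPM at 150 dpi, could pass the filter through the tumours alone. The count and the median are therefore not read against those of all genes. Beside Col2a1 the leading gene was Col9a1, which decorates cartilage fibrils (7.25 ± 0.97, edgeR adjusted p = 1.05e-07), with 282 CPM in Tumor_16713 over a tumour median of 23.0. Of the 14, 7 were highest in Tumor_16713, beside 14.3% of all tested genes. This list and the collagen list share Col2a1, Col11a1 and Col11a2.

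Receptors that SLRPs bind gave 6 of 9 higher and none lower (median log2 change 2.42). Met, the hepatocyte growth factor receptor and a decorin target, rose by 6.79 ± 1.47 (edgeR adjusted p = 0.000244), with its highest level in Tumor_21349, 2492 CPM, where Fmod, Lum and Dcn were at their lowest; Tumor_16713 had 22.7 CPM. Against CKO at 90 dpi Met was not called (2.41 ± 1.26, edgeR adjusted p = 0.112). CKO had a mean of 57.8 CPM, and the tumours a median of 13.4 and a maximum of 2492 CPM. The mean and the median are unlike measures and are not set against each other. Cd44, a matrix receptor, rose by 5.47 ± 0.96 (adjusted p = 1.40e-05), to 215 CPM in Tumor_16713.

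The TGF-beta pathway had 6 of 19 genes higher, 3 lower and a median log2 change of 0.30. Beside the 24.3% higher and 21.9% lower of all genes, these counts are not read as a result about the pathway. Tgfbi (2.73 ± 0.70, edgeR adjusted p = 0.00146) and Ctgf (2.57 ± 0.51, adjusted p = 7.91e-05), matrix proteins induced by TGF-beta, rose and were highest in Tumor_16713 with 23.9 and 211 CPM. The inhibitor Smad7 fell by 1.27 ± 0.20 (adjusted p = 2.07e-06) and Ltbp1, which stores latent TGF-beta in the matrix, by 0.77 ± 0.26 (adjusted p = 0.0157). Against CKO at 90 dpi Tgfbi (0.56 ± 0.59, adjusted p = 0.449) and Ltbp1 (-0.43 ± 0.25, adjusted p = 0.153) were not called.

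Enzymes that build the sugar chains changed in both directions, in numbers that are not read as a result about them beside the 24.3% higher and 21.9% lower of all genes. For chondroitin and dermatan sulfate 5 of 21 were higher and 3 lower (median 0.10): Xylt1, which starts the chain, rose by 1.82 ± 0.25 and the sulfotransferase Chst3 by 1.45 ± 0.23, while Chsy3, a chain polymerase, fell by 3.19 ± 0.28 and Csgalnact1, which adds the first chain sugar, by 1.18 ± 0.21. For keratan sulfate 1 of 7 was higher, B4galt1 (1.48 ± 0.31), and 1 lower, the sulfotransferase Chst1, by 2.15 ± 0.30 (edgeR adjusted p = 2.34e-07), with its lowest tumour level, 5.16 CPM, in Tumor_16713. Of proteases that cut SLRPs 3 of 7 were higher, among them Mmp2 (1.94 ± 0.42) and Adamts1 (1.90 ± 0.28), and 2 lower, Tll1 by 3.11 ± 0.44 and Adamts5 by 2.60 ± 0.24 (median 0.71).

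Markers of other cells that make SLRPs were measured beside these results. Meningeal and perivascular fibroblast markers (16 genes) summed to 1168 CPM in Tumor_16713, 394 in Tumor_21354, 363 in Tumor_16844, 206 in Tumor_16840, 192 in Tumor_16839, 147 in Tumor_21349 and 135 CPM in Tumor_21256, against 66.8 to 117 CPM in WT at 150 dpi and 60.0 to 84.3 CPM in CKO at 90 dpi. The 3 tumours with the highest sums were also the 3 with the highest summed SLRP level. The match was not particular to fibroblasts. The same 3 had the highest pericyte and smooth muscle sums (365, 267 and 198 CPM in Tumor_16713, Tumor_21354 and Tumor_16844). They also had the highest microglial sums (639, 1113 and 926 CPM in the same order). For the other marker lists the 3 highest tumours were not the same. Mgp, which cartilage makes as well, gave 860 CPM of the sum in Tumor_16713; without it, as chosen after its level was seen, that tumour had 307 CPM, the others 123 to 257 CPM and the 30 non-tumour animals 47.7 to 129 CPM. Of the 16, 15 had counts in Tumor_16713 and Twist2 had none. Against WT at 150 dpi 7 of 14 tested were higher, led by Mfap5 (8.06 ± 2.12, edgeR adjusted p = 0.00270, at no more than 6.15 CPM) and Mgp (4.04 ± 0.80, adjusted p = 8.14e-05), and Crabp2 fell by 2.53 ± 0.39 (adjusted p = 1.78e-06). Mfap5 had no count in any WT animal at 150 dpi, so the size of its change is not a measured ratio.

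Pericyte and smooth muscle markers (10 genes) summed to 365 CPM in Tumor_16713 and 130 to 267 CPM in the other tumours, below the 377 to 690 CPM of WT at 150 dpi but overlapping the 221 to 408 CPM of CKO at 90 dpi. Against WT 1 of 10 was higher, Acta2 (2.68 ± 1.00, edgeR adjusted p = 0.0264, 98.1 CPM in Tumor_16713), and 6 were lower. Against CKO 2 were higher and 2 lower. Endothelial markers gave 0 higher and 3 lower of 10, choroid plexus markers 1 higher and 0 lower of 4, and microglial markers 9 higher and 0 lower of 10, with none of the 10 highest in Tumor_16713. OPC markers gave 9 higher and 0 lower of 10, oligodendrocyte markers 1 and 6, astrocyte markers 5 and 3, and neuron markers 0 and 9. CKO_22364, the 12 dpi animal with high Dcn, had the highest fibroblast sum of the non-tumour animals, 156 CPM, where its group ranged from 48.9 CPM. This was not particular to fibroblasts. Within its group CKO_22364 was also highest for pericyte (541 CPM), endothelial (350), microglial (248) and choroid plexus markers (11.6), and lowest for neuron markers (6736). The part of these cells in the SLRP levels was not tested.

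The small libraries give the detection of the members in few cells of CKO OPCs before tumours. Bgn had counts in 42 of 56 10-cell libraries at 12 dpi (75.0%, 95% Wilson interval 62.3 to 84.5%) and 55 of 56 at 90 dpi (98.2%, 90.6 to 99.7%), and in 39 and 40 of 40 pool-and-split libraries. Prelp was found in 41.1% and 62.5% of 10-cell libraries at 12 and 90 dpi and Dcn in 37.5% and 53.6%, while in pool-and-split libraries the later share was the lower one, 57.5% and 32.5% for Prelp and 57.5% and 47.5% for Dcn. Fmod was in 1 of 56 10-cell libraries at 12 dpi (1.79%, 0.316 to 9.45%) and in 8 of 56 at 90 dpi (14.3%, 7.42 to 25.7%), with up to 204 CPM in a single library, where the CKO bulk animals at 90 dpi had no more than 1.70 CPM. The pool-and-split libraries had Fmod in 6 of 40 at 12 dpi and 4 of 40 at 90 dpi, so the order of the times was not the same in both kinds.

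Lum, Omd and Ogn were sparse too, in 16.1%, 14.3% and 17.9% of 10-cell libraries at 12 dpi and 23.2%, 25.0% and 28.6% at 90 dpi. The pool-and-split shares were 12.5%, 15.0% and 20.0% at 12 dpi and 7.5%, 15.0% and 12.5% at 90 dpi. Levels were uneven, with single libraries reaching 222 CPM for Lum, 60.7 for Omd and 754 for Ogn. Dcn reached 1263 CPM and Prelp 559 CPM in single 10-cell libraries at 12 dpi, whereas their medians were 0. Pool-and-split controls were uneven too. At 12 dpi single controls reached 244 CPM for Fmod, 2027 for Prelp and 1548 for Bgn, above every 10-cell library. For Lum, Omd, Dcn and Ogn the highest small library was a 10-cell one. Spread between cells was not separated from technical spread. The labels do not tie these libraries to single animals, so no test was made over libraries. The intervals cover counting of libraries only, and PCR reads without molecular identifiers are not independent molecules.

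**Figure D5:**
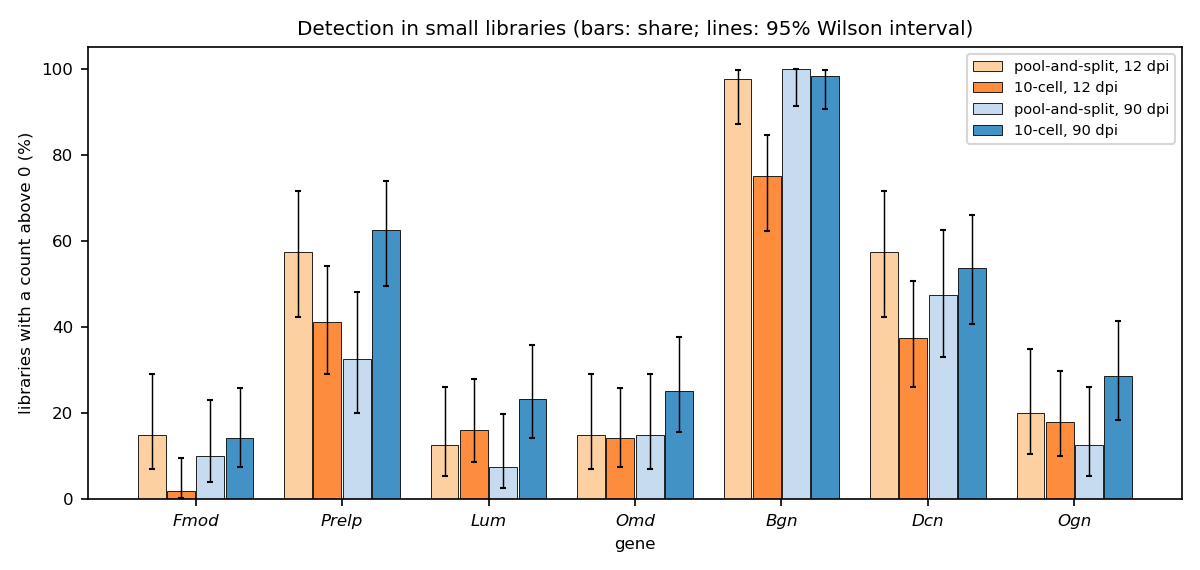
Share of small libraries with a count above 0 (bars, %, with 95% Wilson intervals) for each member, in pool-and-split and 10-cell libraries at 12 and 90 dpi. Bgn is found in 75.0% to 100% of libraries and Fmod in 1.79% to 15.0%.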

How the data were processed

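RNA of 48 bulk libraries (37 mice, T7-based linear amplification, sheared cDNA) and 192 small libraries (PCR amplification) was sequenced, per the labels. The deposited values are estimated counts (RSEM expected counts per gene, unscaled); RSEM, Bowtie2 and GRCm38 are named in the submitters' processing notes, and versions are not given in the sources used here. The amplification can weight transcripts by length and 3′ end, so the order of members was taken per length. Spike-in rows (92) were left out, and the labels name 240 libraries, all used. The members and gene lists were chosen with earlier results of these data known.

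Expected counts were summed per animal and rounded. In edgeR 4.0.16 (R 4.3.3; limma 3.58.1) 16349 genes passed filterByExpr (minimum count 10, total 15) and were scaled by TMM; all 37 animals were fitted together with sex as covariate, and quasi-likelihood F tests were adjusted by Benjamini-Hochberg over all genes (threshold 0.05). SE is the log2 change over the root of F. The replicate was the animal. CPM is per 1000000 of the scaled total. DESeq2 1.42.0, RLE scaling, other filters, no sex covariate, the deepest library, fits of 2 groups and left-out animals were alternatives; the fit without the sparse libraries, the levels set against animals other than WT_21167 and the tests of genotype effects between times were added after seeing the data. The test was checked on simulated data. Animal totals give a common biological coefficient of variation of 0.418, which bounds the precision. Members and, per list, the 2 largest called rises and falls were named, with the 3 genes most like Fmod. Genes within 500 kb of Fmod with 1 CPM or more in tumours could be named too. Optc, Chadl, Kera, Epyc and Twist2 were picked after their values were seen. Exon lengths are from GENCODE M21, where all 7 members have the table's coordinates. Small libraries entered no test.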

Additional observations from a re-analysis of the deposited data

Results flagged for a closer look

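Within each of 42 combinations of member and group, the gap of the highest or lowest animal to its neighbour was set against the range of the group on the log2 CPM scale; chance marks about 1 group in 20, and 3 were marked. Dcn was 74.9 CPM in CKO_22364 at 12 dpi, where the next animal had 5.23 CPM (gap 0.789 of the range, 7 animals). Dcn was 0.570 CPM in WT_22255 at 90 dpi, where the next lowest animal had 9.46 CPM (gap 0.901, 5 animals). Prelp was 9.87 CPM in WT_22280 at 12 dpi, where the next had 23.8 CPM (gap 0.837, 5 animals). No tumour was marked for any member.

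The genotype effect at 150 dpi (tumours against WT) was larger than that at 90 dpi (CKO against WT) by 3.66 ± 0.69 on the log2 scale for Bgn (edgeR adjusted p = 8.62e-05) and 3.13 ± 1.21 for Dcn (edgeR adjusted p = 0.0484), tested as the difference itself. Dcn depended on the samples used, as given above. The fitted difference for Fmod, 7.06 ± 1.93, carries no test, since the tumour levels of Fmod chose the family.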

How the results depend on the processing

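Of the 6 members other than Fmod, 3 to 5 were called higher against WT at 150 dpi and 3 to 6 against CKO at 90 dpi, over the alternatives and left-out animals; a filter at a mean of 10 CPM, which removes Lum, Omd and Ogn, gave 3 in both, and fits of the 2 groups or leaving out Tumor_16713 or Tumor_21354 gave 3 and 4. No member was called in the other 6 comparisons under the alternatives run. In the genotype effect from 90 to 150 dpi 1 to 4 were called (4 with DESeq2), and Bgn was called under every alternative run and without any single animal. Dcn was lost with the deepest library and without the sparse libraries, and without Tumor_16713, Tumor_21354, WT_21167, WT_21590, WT_22056, WT_22062, WT_22064, WT_22178, WT_22180, WT_22184, WT_22185, WT_22254, WT_22281, CKO_22146, CKO_22149, CKO_22152, CKO_22154 or CKO_22212. DESeq2 gave Fmod no adjusted p in the tumour comparisons. Of 639 single values under alternatives 611 kept direction and call, 8 lost it, 13 gained it and 7 changed sign. The sign changes were Ogn against WT at 150 dpi (-0.57 to 0.77 over left-out animals, reversed without Tumor_16713 or WT_22062), Omd in CKO against WT at 12 dpi (0.0563 with the deepest library), Ogn in CKO against WT at 90 dpi (-0.0784 without the sex covariate, -0.0506 with 2 groups) and Ogn in the genotype effect from 90 to 150 dpi (-0.0566 with the deepest library, -0.00516 without the sparse libraries), all far from the threshold; the cause was not tested. With only the 2 groups compared, Prelp was not called against WT (1.48, adjusted p = 0.270) or CKO (2.24, adjusted p = 0.0825). In those fits the spread is estimated from the 2 groups alone. The edgeR adjusted p against WT at 150 dpi rose there to 0.00240 for Bgn, 0.0273 for Lum and 0.0428 for Dcn, which stayed called. Ogn against CKO was called with DESeq2, with RLE and without sex, and Omd against WT with DESeq2 (adjusted p = 0.0471).

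RLE scaling moved the median of all genes by 0.15 (log2) against WT at 150 dpi and 0.17 against CKO at 90 dpi, and raised the higher share of calls in the genotype effect from 90 to 150 dpi from 47.2% to 57.3% (DESeq2, 58.6%). Genes called over the table differed over 1.5 times in the sparse comparisons: CKO against WT at 12 dpi 3, with 13 by DESeq2, 1 at a mean of 10 CPM and 90 with 2 groups; at 90 dpi 8, with 18 and 4 at the filter; WT at 90 against 12 dpi 1, with 9 and 285; WT at 150 against 90 dpi 3, with 20, 6 and 5 without sex; CKO at 90 against 12 dpi 0 (696 at an unadjusted p under 0.05), with 2 by DESeq2 and 1 with 2 groups; and the genotype effect from 12 to 90 dpi 0 (589), with 6 by DESeq2 and 1 without a filter. All 3 genes most like Fmod were kept with a prior count of 0.5. No paired analysis was possible because the bulk animals carry numbers of their own, and the small libraries, which share numbers 1 and 2, entered no test. Levels under 1 CPM rest on few counts at these depths.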
